A study of Mus musculus with 24 samples.

Results

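Long noncoding RNAs are transcripts that are made and processed much like messenger RNAs but are not read into long proteins. Some act in the nucleus, as Malat1 and Neat1 do in and beside nuclear speckles, some serve as carriers of small nucleolar RNAs (snoRNAs) in their introns, and others lie head to head with, or across, a protein-coding gene. The RNAs described here were measured in ID8 cells, a mouse ovarian surface epithelial tumour line. They were taken as the rows classed lincRNA, antisense or processed_transcript in the deposited count table, on chromosomes other than X, Y, MT, 12, 14 and 18, with at least 240 unique molecular identifiers (UMIs, tags that mark single captured RNA molecules) summed over the 24 libraries. This gave 140 of the 24614 rows, out of 2843 rows of these classes and 2458 on the allowed chromosomes. Another 23 rows reached the minimum on the other chromosomes and were not used here. AV099323 with 241 UMIs and BC039966 with 244 lay just inside the threshold, and Gm17435 with 238 and D730003I15Rik with 232 just outside it.

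All cells carried knockouts of Trp53 and Brca2 and grew in medium with 4% serum. The 4 lines were untransfected WT cells, cells given the CRISPR empty vector (EV), and the Ifnar1 knockout clones 1CF10 and 2CD7. Ifnar1 is a chain of the type I interferon receptor. Each line was left untreated (UT) or given recombinant murine interferon beta (IFN beta) at 10000 IU/ml for 3 h, with 3 technical replicates in each of the 8 groups, all treated on the same date. The p-values below therefore measure the spread between technical replicates, and each clone stands for itself. The libraries held 1972192 to 3097331 UMIs (median 2512964), and every one of the 140 RNAs had UMIs in every library. Ifnar1 itself was read at its 3' end, at 8.94 to 16.7 CPM (UMIs scaled to 1000000 in each library) in WT and 8.98 to 13.0 in EV. In 1CF10 it read 6.07 to 12.5 and in 2CD7 4.33 to 9.47. The sources used here do not say where the gene was cut, so a tag at the 3' end does not check the knockout. Summed markers of epithelium and mesothelium stood at 2400 to 4030 CPM, with 7 of 12 markers at a mean of at least 1 CPM. Those 7 were Krt8, Krt18, Krt19, Msln, Cdh2, Wt1 and Upk3b. Cdh1, Krt7, Lrrn4 and Pax8 had means of 0.215, 0.346, 0.161 and 0.0173 CPM, and Epcam had no row. The 6 leukocyte markers summed to 0 to 0.406 CPM, 4 endothelial markers to 0 to 1.52 CPM and 3 fibroblast markers to 29.1 to 194 CPM. The fibroblast marker Col1a1 stood at 111.8 to 171.4 CPM in 1CF10 and at 21.24 to 72.55 in the other lines.

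The class held 56 lincRNAs, 44 antisense RNAs and 40 processed transcripts. In GENCODE M21 (build GRCm38) 62 of the 140 overlapped the body of a protein-coding gene, and 28 started within 1000 bp of a protein-coding start on the opposite strand. An exon of 69 lay over an exon on the opposite strand and an exon of 29 was shared with a gene on the same strand, among them the small RNAs carried by host genes. The strand setting of the counting is not stated in the sources used, so reads of those pairs may not be told apart. Names were mostly provisional, with 46 ending in Rik and 41 formed of Gm and a number. The class in the table follows the annotation and not a test of coding. Rows named after protein-coding genes, Ifi30, Trerf1 and Trmt61b, are thus counted among the members. Ifi30 changed by -0.37 ± 0.19 (log2, SE) after IFN beta in WT and by -0.38 ± 0.20 in EV, and passed in neither.

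Abundance was very uneven. Together the 140 RNAs held 0.639% to 0.981% of the UMIs of a library (median 0.728%). Malat1, Neat1 and Gas5 made up 60% of these UMIs and the 10 most abundant RNAs 73.2%. By class, 70.9% of the UMIs came from lincRNAs, 22.1% from processed transcripts and 6.94% from antisense RNAs. The typical member was far lower, with a median of 532 UMIs over the 24 libraries. Its median average log2 CPM was 3.24, against 4.80 for all 11698 genes tested.

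Malat1, a nuclear RNA that ends in a genomically encoded A-rich tract, stood at 3486, 3352 and 4424 CPM in untreated WT and at 2628, 3498 and 3157 in untreated EV. In untreated 1CF10 it read 3102, 3049 and 4463, and in untreated 2CD7 3208, 3636 and 5623. Untreated replicate 3 of each clone stood apart from its other two. Neat1, the scaffold of paraspeckles, showed the same libraries high: 274.5, 286.5 and 600.5 CPM in untreated 1CF10, and 465.7, 501.9 and 834.3 in untreated 2CD7. Without Malat1 and Neat1 the other members made up 0.315% to 0.366% of the UMIs of every library. Neither RNA passed the test in any comparison (for Malat1 after IFN beta, log2 fold change 0.21 ± 0.19 (SE) in WT and 0.04 ± 0.19 in EV). Of 52 called values of named RNAs that rest on the untreated clones, 38 kept their call without these 2 libraries and 14 lost it. The 38 include those of Gm49708, Gm50321, Tnfsf13os, Gm2694 and Snhg6 below.

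**Figure D1:**
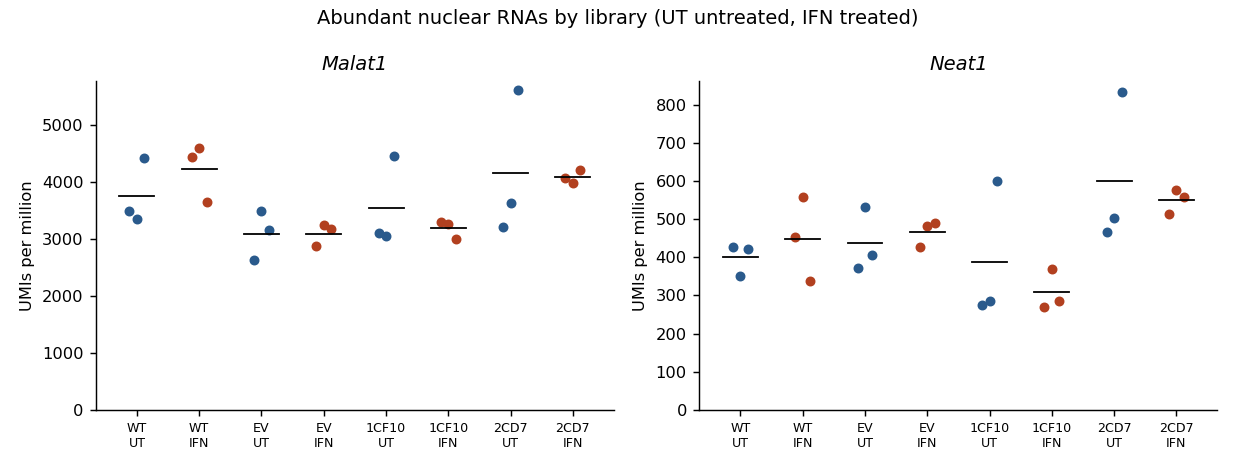
Level (CPM) of Malat1 and Neat1 in each library (points) with the mean of 3 replicates (bars), by line and treatment. One untreated library of 1CF10 and one of 2CD7 lie above their replicates for both RNAs, at 4463 and 5623 for Malat1.

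Of 16 names listed as nuclear and chromatin-associated RNAs, 5 were members (Malat1, Neat1, Kcnq1ot1, Oip5os1 and 2900097C17Rik). None of the 5 passed the test in any comparison of lines or treatments. The list was not checked for genes entered under different names, nor for where each RNA lies in the cell. Kcnq1ot1, the imprinted antisense RNA of the Kcnq1 locus and the 1 member of the 11 imprinted RNAs listed, ranged from 18.25 to 46.38 CPM over all libraries. Its untreated level differed from that of WT by 0.13 ± 0.26 (log2, SE) in EV, by 0.09 ± 0.26 in clone 1CF10 and by 0.05 ± 0.26 in clone 2CD7. Gas5, a snoRNA host that accumulates when cells stop growing, stayed between 365.7 and 448.1 CPM in all 24 libraries. Its log2 fold change was 0.05 ± 0.07 after IFN beta in WT and -0.07 ± 0.07 in EV.

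IFN beta raised 7 of the 140 RNAs in WT and lowered 1 (edgeR quasi-likelihood test over all genes, Benjamini-Hochberg adjusted p under 0.05). In EV it raised 5 and lowered 1. Of all genes tested, WT had 5.01% higher and 1.84% lower, and EV had 3.99% higher and 1.1% lower. The share of members that rose in WT, 5%, was thus near that background. The shares that fell, 0.714% in each line, rest on 1 RNA each and are too few to set apart from it. The median log2 fold change of the 140 was -0.12 in WT, where that of all genes was -0.02, and 0.02 in EV, against -0.01. The 4 RNAs that rose in both controls were AW112010, Gm20559, AU020206 and Morrbid. How many of all genes rose in both controls was not counted. In WT the count that fell was 0 without untreated replicate 3, 2 without untreated replicate 1 or treated replicate 1, and 3 without untreated replicate 2 or treated replicate 2. In EV it was 0 without untreated replicate 1 or 3 or treated replicate 2 or 3.

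Many genes induced by type I interferon carry the interferon-stimulated response element (ISRE) in their promoters. The 300 bases around the RefSeq start (GRCm38.p6; 250 before it and 50 after) are shown for 3 of the 4 RNAs raised in both controls, since they moved together. That of Morrbid is not shown, because its RefSeq start lies 73414 bp from the GENCODE start of the gene. Each is written 5' to 3' on the strand of the gene, which is the minus strand for all, and capitals mark a match to GAAANNGAA, a looser form of the ISRE core chosen after these sequences had been read.
AW112010, chr19:11050517-11050816: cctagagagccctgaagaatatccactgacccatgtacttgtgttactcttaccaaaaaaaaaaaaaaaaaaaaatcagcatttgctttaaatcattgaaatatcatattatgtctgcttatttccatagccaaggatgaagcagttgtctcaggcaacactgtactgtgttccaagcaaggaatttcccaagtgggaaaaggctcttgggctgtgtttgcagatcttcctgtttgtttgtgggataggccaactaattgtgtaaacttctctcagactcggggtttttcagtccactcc
Gm20559, chr6:3346092-3346391: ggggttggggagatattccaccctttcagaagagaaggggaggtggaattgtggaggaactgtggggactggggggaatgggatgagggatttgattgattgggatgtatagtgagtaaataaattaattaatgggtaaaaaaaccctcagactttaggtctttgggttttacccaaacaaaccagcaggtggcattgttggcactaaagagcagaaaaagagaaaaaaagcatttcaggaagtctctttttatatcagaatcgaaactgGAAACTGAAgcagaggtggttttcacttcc
AU020206, chr7:75782071-75782370: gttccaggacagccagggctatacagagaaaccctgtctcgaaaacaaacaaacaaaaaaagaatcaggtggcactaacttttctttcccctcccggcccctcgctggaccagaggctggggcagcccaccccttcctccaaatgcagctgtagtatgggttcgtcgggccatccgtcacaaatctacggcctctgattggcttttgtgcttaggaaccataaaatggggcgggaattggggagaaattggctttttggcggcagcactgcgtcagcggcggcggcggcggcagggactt
The ISRE core (GAAA, any 2 bases, GAAA), sought on both strands, lay in 1131 of 32851 mouse promoter windows (3.44%) and in 1 of the 98 members with a window (Wt1os, which did not pass the test in either control). It was not found in the windows of the 4 RNAs raised in both controls. The looser GAAANNGAA, which also takes in every ISRE core, lay in 8.56% of all windows and in 7 of the 98, among them Gm20559, where it begins 20 bases after the RefSeq start. These matches describe the letters only. For AW112010 the RefSeq start lies 5242 bp inside the GENCODE gene (chromosome 19, 11047612 to 11055808, minus strand), which has 2 annotated transcripts.

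AW112010, a lincRNA known from activated macrophages and T cells and reported to be translated into a short protein, had the largest response of the called members in both controls. It read 26.4, 39.0 and 28.5 CPM in untreated WT and 319.2, 267.7 and 339.9 after IFN beta. In EV it went from 28.5, 35.3 and 36.6 to 248.7, 241.2 and 246.1. The treated and untreated libraries of both controls were far apart. The log2 fold change was 3.36 ± 0.12 in WT (adjusted p = 3.13e-26, edgeR) and 2.91 ± 0.12 in EV (adjusted p = 7.41e-24, edgeR). In clone 1CF10 it read 24.2, 23.6 and 25.5 untreated and 24.4, 23.3 and 13.3 treated. In 2CD7 it read 18.5, 23.6 and 20.1 untreated and 30.3, 35.4 and 26.8 treated. The 3 treated 2CD7 libraries were thus all above the untreated ones, by 0.58 on the log2 scale (95% interval 0.24 to 0.92, unadjusted p = 0.00181, adjusted p = 0.997, edgeR), which did not pass the test over all genes. In 1CF10 the interval was -0.63 to 0.07. Untreated 2CD7 was lower than untreated EV by a log2 difference of -0.70 ± 0.17 (adjusted p = 0.00478, edgeR), and -0.58 ± 0.18 against WT did not pass (adjusted p = 0.0525, edgeR).

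The tags counted here come from the 3' end of an RNA. The last 100 bases of the longest GENCODE transcripts of AW112010 and AU020206 are printed, as the stretch next to the poly(A) tail, with the polyadenylation signal in capitals.
AW112010: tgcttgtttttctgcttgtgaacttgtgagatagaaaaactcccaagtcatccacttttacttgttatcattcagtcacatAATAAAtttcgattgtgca
AU020206: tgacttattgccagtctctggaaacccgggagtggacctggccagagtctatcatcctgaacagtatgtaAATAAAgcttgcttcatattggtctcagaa
The signal AATAAA starts 19 and 30 bases before the end. Neither RNA shared its last 50 bases with another gene in the annotation. In all, 12 of the 140 members had a transcript whose last 50 bases also lay in another gene.

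Gm20559 (chromosome 6, 3333194 to 3346128, minus strand, 6 transcripts) rose in both controls from unequal starting levels. Untreated WT read 24.1, 29.4 and 24.4 CPM and treated WT 60.8, 62.6 and 48.9. Untreated EV read 5.62, 7.71 and 6.51 and treated EV 31.9, 44.8 and 30.8. Treated EV lay just above untreated WT. The log2 fold change was 1.20 ± 0.17 in WT (adjusted p = 2.63e-07, edgeR) and 2.48 ± 0.24 in EV (adjusted p = 7.72e-12, edgeR). The difference between these responses, 1.28 ± 0.31, did not pass over all genes (unadjusted p = 0.000132, adjusted p = 0.123, edgeR). Without treatment EV was lower than WT by a log2 difference of -1.96 ± 0.25 (adjusted p = 7.11e-08, edgeR). Clone 1CF10, at 11.3, 10.0 and 16.5 untreated and 12.4, 10.8 and 11.4 treated, lay between untreated EV and untreated WT, while 2CD7, at 22.2, 38.6 and 34.3 untreated and 29.9, 39.7 and 48.1 treated, overlapped untreated WT. Some of its shorter isoforms end in repeats that lie in many other genes, and the sources used here do not say how reads there were assigned.

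Morrbid, an RNA known for holding down the gene of the death factor Bim (Bcl2l11) in myeloid cells, went from 46.5, 48.7 and 45.4 CPM to 96.9, 86.6 and 97.7 in WT. In EV it went from 71.1, 64.5 and 78.1 to 128.6, 134.6 and 144.0. Treated and untreated libraries did not overlap in either control. The log2 fold change was 1.05 ± 0.12 in WT (adjusted p = 7.47e-11, edgeR) and 0.97 ± 0.10 in EV (adjusted p = 3.59e-11, edgeR). In the clones it was -0.10 ± 0.12 (1CF10) and 0.00 ± 0.13 (2CD7). Untreated EV stood above untreated WT by 0.61 ± 0.12 (adjusted p = 0.000132, edgeR). Bcl2l11 itself differed by 0.22 ± 0.18 in WT and 0.52 ± 0.20 in EV after IFN beta, which did not pass the test (adjusted p = 0.626 and 0.152, edgeR).

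AU020206, a lincRNA on chromosome 7 (75769038 to 75782099, minus strand), went from 11.6, 16.2 and 14.8 CPM to 42.9, 33.0 and 36.6 in WT, and from 13.2, 13.8 and 15.1 to 23.3, 42.9 and 27.3 in EV. The groups did not overlap in either control. The log2 fold change was 1.44 ± 0.23 in WT (adjusted p = 1.7e-05, edgeR) and 1.21 ± 0.24 in EV (adjusted p = 0.000484, edgeR). Unlike Gm20559 and Morrbid it began at a like level in both controls, with a difference of -0.02 ± 0.28. In the clones the log2 fold change was 0.03 ± 0.24 (1CF10) and 0.00 ± 0.25 (2CD7).

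**Figure D2:**
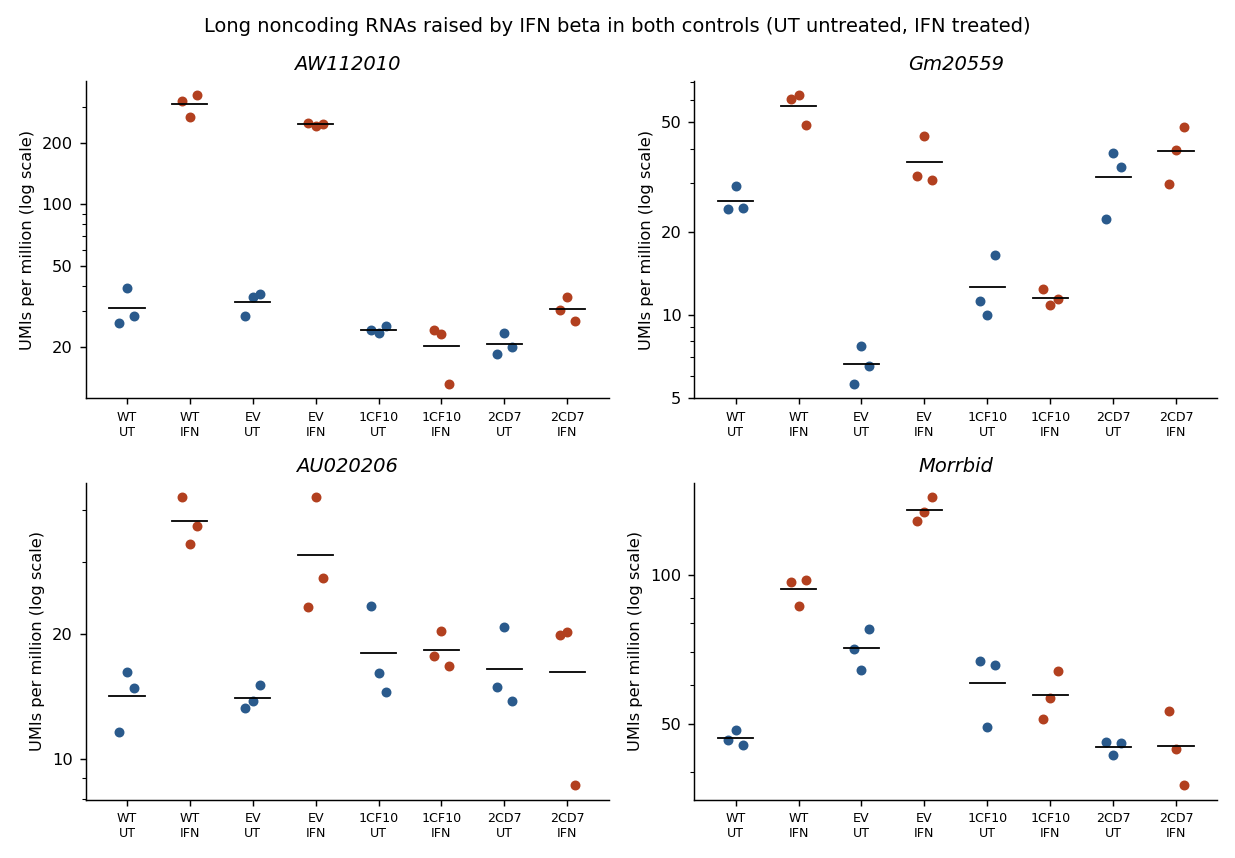
Level (CPM, log scale) of the 4 long noncoding RNAs that rose in both controls, one point per library with the mean of 3 replicates as a bar. Treated libraries of WT and EV lie above the untreated ones in every panel (AW112010 from 26.4 to 39.0 in untreated WT to 267.7 to 339.9 treated), and untreated Gm20559 differs between lines.

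Another 6 RNAs passed in one control and not in the other. In WT alone Snhg12 (0.68 ± 0.20, adjusted p = 0.0226, edgeR), Mirt1 (0.64 ± 0.20, adjusted p = 0.0333) and Zfas1 (0.61 ± 0.13, adjusted p = 0.000679) passed as higher. Gm49708 passed there as lower (-0.60 ± 0.14, adjusted p = 0.00153, edgeR). Its change in EV was of like size and did not pass (-0.63 ± 0.28, adjusted p = 0.248, edgeR). Snhg12 went from 13.0, 12.7 and 14.4 to 20.1, 23.3 and 19.1 CPM in WT, while EV began at 22.5, 23.1 and 19.5 and read 18.8, 19.7 and 21.8 treated. Treated WT thus reached the level that EV had without treatment. The last 50 bases of one of its annotated transcripts also lie in the small nucleolar RNA Snora61, which it hosts. Mirt1 had the same pattern, with 18.8, 10.1 and 18.6 in untreated WT, 27.4, 25.0 and 20.8 in treated WT, and 24.0 to 32.9 in untreated EV. In EV alone Gm19705 passed as higher (0.53 ± 0.15, adjusted p = 0.0158, edgeR) and Gm16062, an antisense RNA of Cops3, as lower (-0.73 ± 0.21, adjusted p = 0.025). In WT they changed in the same directions without passing (0.41 ± 0.14 and -0.45 ± 0.23, adjusted p = 0.0677 and 0.318, edgeR). The difference between the responses of EV and WT passed for none of the 140 RNAs in either direction (edgeR; at an unadjusted p under 0.05, 9 were higher and 6 lower in EV), and 0.0256% and 0.0171% of all genes passed. With DESeq2 the calls of Snhg12, Mirt1, Gm19705 and Gm16062 were lost. Without WT treated replicate 2 or untreated replicate 2 the calls of Snhg12 and Mirt1 were lost, as were that of Snhg12 without untreated replicate 1 and that of Mirt1 without treated replicate 1. Gm49708 in WT was lost without untreated replicate 3 (adjusted p = 0.0575, edgeR). In EV the call of Gm19705 was lost without treated replicate 2 or 3 or untreated replicate 3, and that of Gm16062 without treated replicate 2 or 3 or untreated replicate 1 or 3.

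The nearest protein-coding gene of a member was often silent or unmoved. The 140 RNAs had 140 different nearest genes, of which 102 were expressed enough to test. Of these, 6 (5.88%) rose in WT and 7 (6.86%) in EV, beside 5.01% and 3.99% of all genes. Of the members, 3 beside a raised gene rose themselves in WT (Gm20559, Mirt1 and Zfas1) and 2 in EV (Gm20559 and Gm19705). The pairs that did not move together included Pvt1 with Myc, whose gene rose in both controls while Pvt1 changed by -0.03 ± 0.22 in WT and 0.43 ± 0.18 in EV without passing.

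Zfas1, a snoRNA host, starts 81 bp from Znfx1, a helicase gene of antiviral defence, and the pair is transcribed in opposite directions with overlapping exons. Znfx1 went from 7.60, 8.62 and 8.94 CPM to 93.8, 64.7 and 71.2 in WT, a log2 fold change of 3.22 ± 0.19 (adjusted p = 1.41e-21, edgeR). Zfas1 went from 30.4, 28.4 and 37.8 to 43.7, 50.4 and 51.3 there. In EV Znfx1 rose by 2.63 ± 0.19 (adjusted p = 1.13e-17, edgeR) and Zfas1 by 0.19 ± 0.13, which did not pass (adjusted p = 0.575). The partner's change was the larger one in both lines. Samd9l, an interferon-inducible antiviral gene whose start lies 53444 bp from that of Gm20559 on the same strand, rose by 2.81 ± 0.28 in WT and 2.69 ± 0.29 in EV (adjusted p = 8.94e-07 and 3.7e-06, edgeR). Untreated Samd9l differed between EV and WT by -0.27 ± 0.38, where Gm20559 differed by -1.96. Zfp281, the nearest gene to Gm19705, rose by 0.70 ± 0.13 in WT and 0.46 ± 0.13 in EV (adjusted p = 8.47e-05 and 0.0256, edgeR). Klhl25, nearest to AU020206, changed by 0.22 ± 0.24 and 0.26 ± 0.26 and did not pass. The nearest gene to AW112010, Ms4a8a, and that to Morrbid, Spdye4c, were too low to test.

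**Figure D3:**
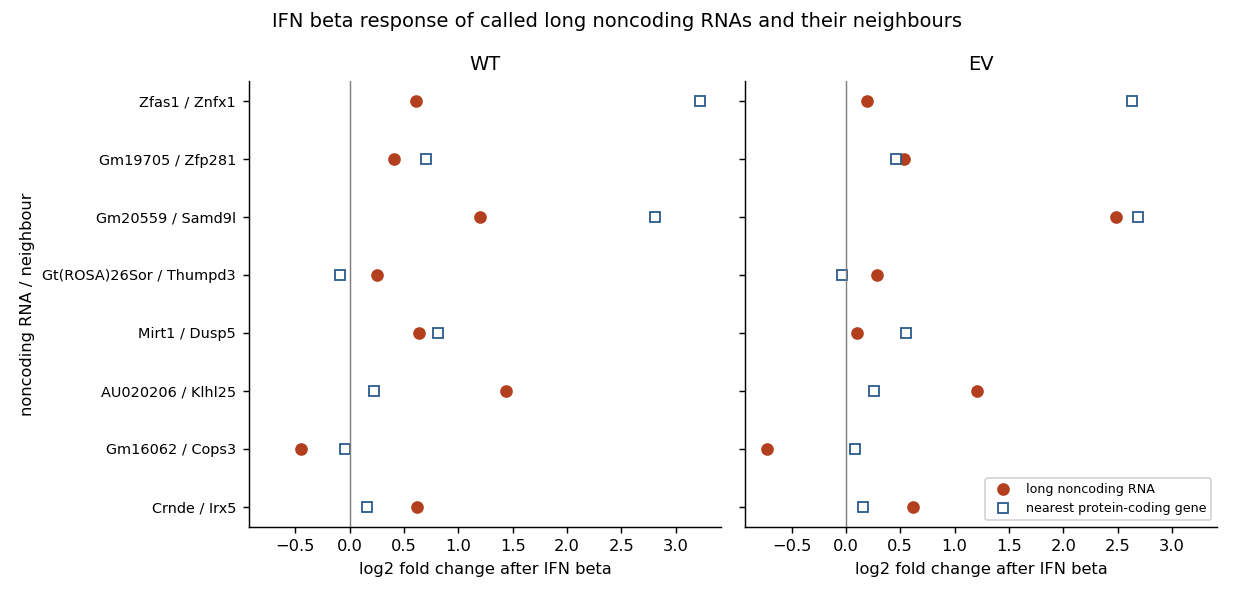
Log2 fold change after IFN beta in WT and EV of long noncoding RNAs that passed in an IFN beta comparison (filled circles) and of their nearest protein-coding gene (open squares), for the pairs in which both were tested. Znfx1 and Samd9l lie at 2.63 to 3.22, at or to the right of their partners Zfas1 and Gm20559, and Klhl25, Thumpd3, Irx5 and Cops3 lie between -0.09 and 0.26.

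In the clones none of the 140 RNAs passed after IFN beta (edgeR and DESeq2), and of all genes 0% passed in each clone and direction. At an unadjusted p under 0.05 edgeR gave 3 higher and 8 lower in 1CF10, and 4 higher and 3 lower in 2CD7. DESeq2 gave 1 higher and 5 lower, and 3 and 0. The difference between the mean response of the clones and that of the controls was tested directly. It passed for 9 RNAs, 8 with a lower response in the clones and 1 with a higher one, beside 3.68% and 1.56% of all genes. These were AW112010 (-2.99 ± 0.16), Gm20559 (-1.76 ± 0.21), AU020206 (-1.31 ± 0.24), Morrbid (-1.06 ± 0.12), Crnde (-0.95 ± 0.26), Gt(ROSA)26Sor (-0.53 ± 0.17), Gm19705 (-0.50 ± 0.15), Zfas1 (-0.46 ± 0.13) and Gm49708 (0.65 ± 0.19). Without untreated replicate 3 of both clones, an alternative chosen after seeing the data, 5 had a lower and 2 a higher response, and the calls of Gt(ROSA)26Sor, Gm19705 and Zfas1 were lost. The 1 higher response, that of Gm49708, was lost by DESeq2 and without any one of treated 1CF10 replicate 1 or 3, untreated 1CF10 replicate 1 or 2, treated 2CD7 replicate 3, untreated 2CD7 replicate 1 or 2, each of the 6 EV libraries, treated WT replicate 1 and untreated WT replicate 3, and the count of higher responses was 2 without untreated 1CF10 replicate 3.

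Crnde, an RNA beside the homeobox gene Irx5 and named for its expression in colorectal tumours, and Gt(ROSA)26Sor, the antisense RNA of the locus widely used to insert transgenes, passed the test of the difference although they passed in no single line. Crnde went from 8.94, 9.63 and 7.91 CPM to 11.8, 12.2 and 15.5 in WT, and in 2CD7 from 9.45, 11.8 and 8.28 to 6.49, 5.67 and 9.53. Its response was 0.62 ± 0.25 in WT and 0.62 ± 0.28 in EV, and in the clones -0.19 ± 0.24 (1CF10) and -0.47 ± 0.27 (2CD7). Its call was lost by DESeq2 and without treated EV replicate 1. The response of Gt(ROSA)26Sor was 0.25 ± 0.17, 0.29 ± 0.16, -0.38 ± 0.16 and -0.15 ± 0.17 in the same order. Its call was lost by DESeq2, with no filter on low counts and without any one of treated 1CF10 replicate 1, untreated 1CF10 replicate 1 or 3, treated 2CD7 replicate 2, treated EV replicate 3, untreated EV replicate 1 or 3, treated WT replicate 1 or 2 and untreated WT replicate 2. That of Zfas1 was lost by DESeq2 and without untreated 2CD7 replicate 3 or untreated EV replicate 1. That of Gm19705 was lost by DESeq2 and without treated 1CF10 replicate 2, untreated 1CF10 replicate 3, treated 2CD7 replicate 2, untreated 2CD7 replicate 3, untreated EV replicate 3 or untreated WT replicate 1.

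Without treatment the lines differed for more of these RNAs than IFN beta moved, as was also so for all genes. In a joint test of the 4 untreated lines 38 of the 140 RNAs (27.1%) passed, beside 26.4% of all genes. By class 21 of 56 lincRNAs, 9 of 44 antisense RNAs and 8 of 40 processed transcripts passed. In the 5 comparisons of an untreated line with untreated WT or EV 44 RNAs (31.4%) passed at least once, beside 29.9% of all genes. In the response of WT or EV 10 (7.14%) passed, beside 8.18%. Of the 140, 90 passed neither in these, in the joint test, in the responses of the clones nor in the difference of responses between clones and controls, so that 35.7% passed somewhere, as did 35.7% of all genes. Without untreated replicate 3 of both clones 31 passed the joint test.

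Untreated EV had 16 RNAs higher and 9 lower than untreated WT, with 6.96% and 7.14% of all genes. Clone 1CF10 had 16 higher and 10 lower than WT (8.19% and 11% of all genes) and 9 higher and 5 lower than EV (3.6% and 6.76%). Clone 2CD7 had 1 higher and 4 lower than WT (1.45% and 2.06%) and 4 higher and 10 lower than EV (4% and 4.86%). Between the clones, a comparison added after seeing the data, 2CD7 had 6 higher and 13 lower than 1CF10 (7.71% and 5.69%). These comparisons share their untreated controls. No RNA passed in the same direction in both clones against both controls. The share of all genes that did so was not counted, so this is not set apart from the background. Without WT replicate 3 the EV comparison with WT gave 10 higher and 5 lower, and without EV replicate 3 it gave 5 lower. Without replicate 3 of both clones 1CF10 had 9 higher and 11 lower than WT and 5 higher and 4 lower than EV, and 2CD7 had 1 higher and 3 lower than WT and 5 higher and 9 lower than EV. The count higher than EV in 1CF10 was also 5 without its replicate 2 or 3, the count lower was 2 without EV replicate 3, and 2CD7 had 6 lower than EV without its replicate 1. For 2CD7 against WT the count lower was 2 without its replicate 1 or WT replicate 2 and 1 without WT replicate 3. The count higher there was 0 without its replicate 1 or WT replicate 2 or 3 and 2 without its replicate 2.

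Gm49708 had the largest difference between untreated EV and WT among the RNAs that passed. It read 72.4, 74.5 and 90.4 CPM in untreated WT, 34.9, 44.8 and 61.9 in 2CD7, 27.3, 20.4 and 32.9 in 1CF10 and 11.6, 12.2 and 11.8 in EV. The 4 lines took this order with no overlap between neighbours. Against WT the log2 difference was -2.74 ± 0.18 in EV, -1.59 ± 0.15 in 1CF10 and -0.77 ± 0.14 in 2CD7 (adjusted p = 2.59e-17, 4.03e-12 and 0.000262, edgeR). The treated libraries kept WT and 2CD7 above 1CF10 and EV, at 44.5 to 56.3 in WT, 54.6 to 69.4 in 2CD7, 20.4 to 24.3 in 1CF10 and 6.83 to 8.00 in EV. Gm50321 followed the same order in group means, at 18.3, 27.4 and 26.1 in untreated WT, 7.63, 15.3 and 20.1 in 2CD7, 11.7, 10.0 and 7.43 in 1CF10 and 6.02, 3.65 and 4.07 in EV, where 2CD7 overlapped both WT and 1CF10. Its difference from WT was -2.38 ± 0.29 in EV and -1.36 ± 0.24 in 1CF10 (adjusted p = 1.21e-08 and 2.57e-05, edgeR). That in 2CD7, -0.76 ± 0.23 (adjusted p = 0.0462), was lost without 2CD7 replicate 1 or 2 or WT replicate 2 or 3 and in a fit of these 2 groups alone.

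These 2 RNAs are not independent measurements. Gm49708 lies on chromosome 16 (90341595 to 90349642, minus strand) and Gm50321 on chromosome 19 (9828899 to 9836897, minus strand), yet the last 545 bases of their longest transcripts are identical. Their last 100 bases, where 3' tags fall, are printed to show that a read there names neither gene, and no letter is in capitals since none differs.
Gm49708: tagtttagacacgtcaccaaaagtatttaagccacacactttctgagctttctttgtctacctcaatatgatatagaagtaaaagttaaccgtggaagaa
Gm50321: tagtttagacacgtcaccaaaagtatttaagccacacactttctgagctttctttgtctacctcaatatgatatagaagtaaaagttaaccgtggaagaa
The last 50 bases of both also lie in Gm47101 and Gm47547, which are not members. The sources used here do not say how reads that fit several of these genes were assigned. The values of the 2 RNAs are thus uncertain one against the other and against Gm47101 and Gm47547, and which gene the line differences belong to was not tested.

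Tnfsf13os, annotated antisense to Tnfsf13 (the gene of the B-cell factor APRIL), also separated the lines. Over the 6 libraries of each line it ranged from 25.5 to 38.5 CPM in WT (median 30.8), 13.0 to 21.8 in 2CD7 (median 19.1), 5.13 to 9.80 in EV (median 8.05) and 5.63 to 7.14 in 1CF10 (median 6.58). WT, 2CD7 and the pair of EV and 1CF10 did not overlap, and EV and 1CF10 did. Untreated, the log2 difference from WT was -2.05 ± 0.21 in EV, -2.33 ± 0.21 in 1CF10 and -0.74 ± 0.17 in 2CD7 (adjusted p = 2.61e-11, 2.37e-13 and 0.00663, edgeR), the last lost without 2CD7 replicate 1 or WT replicate 3. Tnfsf13 itself was read at 0 to 1.63 CPM. IFN beta changed Tnfsf13os by -0.00 ± 0.16 in WT and 0.04 ± 0.28 in EV.

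Gm2694, a lincRNA that overlaps Cbln1 on the other strand (chromosome 8, 87460469 to 87525554), was high in EV alone among the 4 lines. Untreated EV read 14.8, 10.1 and 8.54 CPM, and untreated WT 1.79, 2.54 and 2.75. Clone 1CF10 read 0.433, 2.50 and 1.29, and 2CD7 3.27, 2.36 and 1.97. No library of another line, treated or not, passed 4.16 CPM, and no EV library fell under 8.54. EV differed from WT by 2.21 ± 0.36, 1CF10 from EV by -2.92 ± 0.38 and 2CD7 from EV by -2.11 ± 0.35 (adjusted p = 3.97e-06, 3.72e-08 and 6.54e-06, edgeR).

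**Figure D4:**
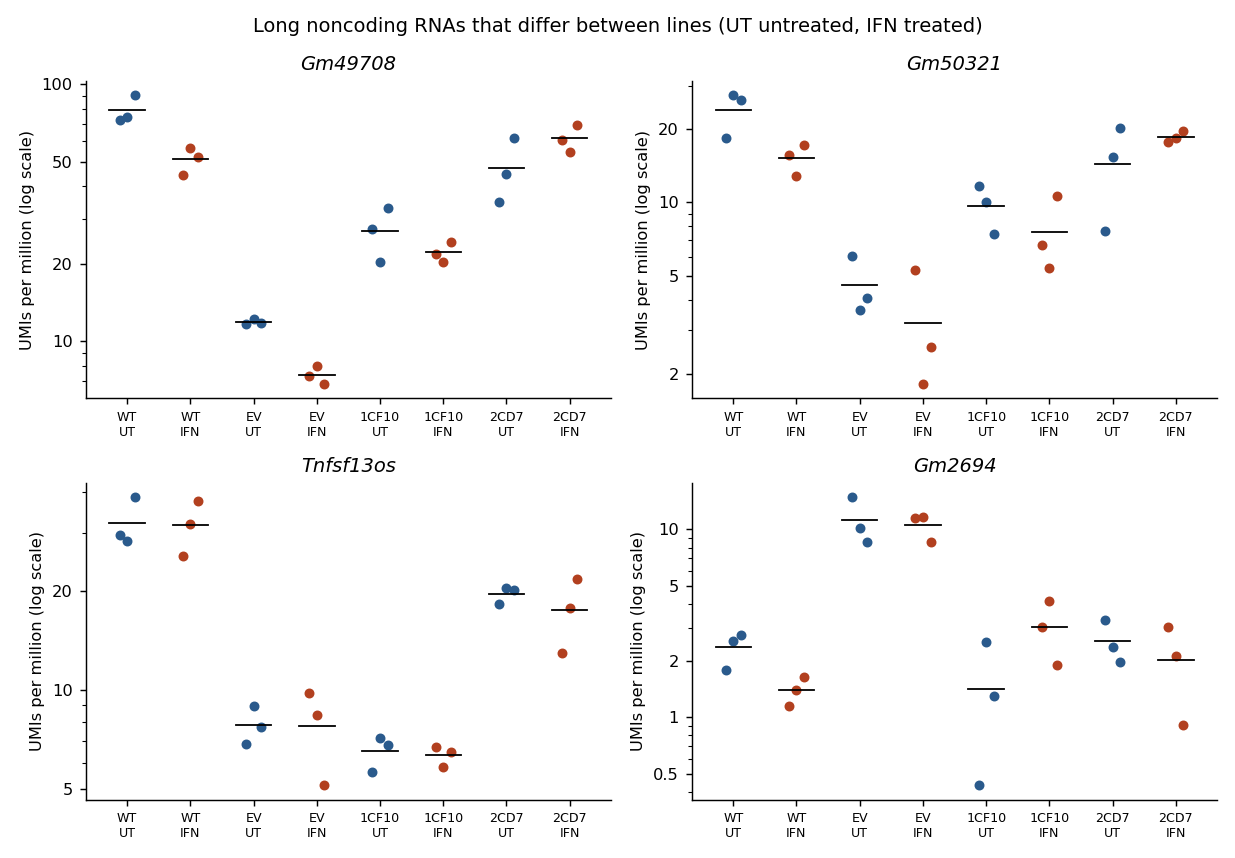
Level (CPM, log scale) of 4 long noncoding RNAs that differed between lines, one point per library with the mean of 3 replicates as a bar. Gm49708 and Gm50321, which share their 3' end, and Tnfsf13os are highest in WT and 2CD7, and Gm2694 is highest in EV, at 8.54 to 14.8.

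Other RNAs higher in untreated EV than in WT were Gm44275 (1.29 ± 0.36), 9930014A18Rik (1.07 ± 0.27), Gm49890 (1.00 ± 0.35) and 9330020H09Rik (0.99 ± 0.29), all at under 16 CPM in untreated EV. 1110046J04Rik was lower (-1.12 ± 0.37). These 5 calls rest on few UMIs. Each was lost when a single library was left out: without EV replicate 1 for Gm44275, and without WT replicate 3 for 9930014A18Rik. For 9330020H09Rik that held for EV replicate 2 and WT replicates 2 and 3, for Gm49890 for replicates 1 and 3 of both lines, and for 1110046J04Rik for each of the 6 libraries. Wincr1, named here after its values were seen, was high in EV and 1CF10 together: it ranged over 6 libraries from 19.9 to 28.1 CPM in EV and from 23.2 to 32.5 in 1CF10, and from 7.60 to 14.3 in WT and 9.98 to 18.2 in 2CD7.

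Clone 1CF10 had 3 RNAs above both untreated controls that 2CD7 did not share, and 1 below. How many of all genes passed against both controls in either clone was not counted, so these counts have no background beside them. Snhg6 read 149.8, 198.3 and 182.4 CPM in 1CF10, against 109.6, 101.4 and 105.2 in WT, 130.5, 139.5 and 121.2 in EV and 110.2, 112.5 and 112.0 in 2CD7. It was higher than WT by 0.72 ± 0.09 and than EV by 0.41 ± 0.09 (adjusted p = 9.97e-09 and 0.000624, edgeR). 4930461G14Rik read 107.8, 99.7 and 101.7 in 1CF10 and 68.35 to 81.9 in the other untreated lines, a difference of 0.38 ± 0.10 from WT and 0.39 ± 0.10 from EV (adjusted p = 0.00214 and 0.00251, edgeR). Both RNAs were also higher in 1CF10 than in 2CD7, by 0.65 and 0.51 on the log2 scale. 3300005D01Rik stood at 15.1, 15.7 and 16.1 against 6.19 to 11.4 in the other untreated lines. Gm45051, antisense to 0610030E20Rik, was the one below, at 5.20, 6.07 and 5.17. The calls of 3300005D01Rik and Gm45051 against EV (0.72 ± 0.22 and -0.93 ± 0.29, adjusted p = 0.0218 and 0.0262, edgeR) were lost without 1CF10 replicate 3, among others. No RNA passed in the same direction in 2CD7 against both controls, and Gm49708, Gm50321 and Tnfsf13os passed as lower than WT and higher than EV.

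snoRNA host genes are transcribed for the small nucleolar RNAs in their introns, which guide chemical marks on ribosomal RNA, and their spliced exons are usually short-lived. Of 30 genes listed as such hosts 17 were members, and the listing was not checked against snoRNA positions. Of these, 7 were higher and none lower in untreated EV than in WT (Snhg16, Snhg12, Snhg15, Dancr, Snhg6, Snhg5 and Snhg9), and 7 were higher and none lower in untreated 1CF10 than in WT (Snhg16, Snhg12, Snhg15, Snhg6, Snhg5, Zfas1 and 2410006H16Rik). In 2CD7 Snhg5 was higher (0.50 ± 0.13) and the other 16 did not pass. Of all genes 6.96%, 8.19% and 1.45% were higher in EV, 1CF10 and 2CD7. The median log2 difference of the 17 was 0.36 in EV, 0.39 in 1CF10 and 0.15 in 2CD7, where that of all genes was -0.01, -0.01 and -0.02. The sign was positive for 15, 16 and 12 of the 17. Among the negative ones in each line was 1810026B05Rik (-0.36 ± 0.24, -0.37 ± 0.24 and -0.08 ± 0.23), none of which passed. It has a transcript whose last 50 bases also lie in Chd2. All these values rest on the same 3 untreated WT libraries.

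Snhg16 read 9.39, 6.59 and 9.28 CPM in untreated WT, 12.4, 17.04 and 14.6 in EV, 14.7, 17.5 and 13.2 in 1CF10 and 10.2, 14.9 and 16.2 in 2CD7. All 9 values of the other lines were above those of WT. Snhg5 read 55.5, 45.6 and 47.8 in WT and 62.8 to 81.7 in the others, again without overlap. Snhg9 was high in EV alone of the untreated lines, at 79.5, 81.1 and 85.8, against 50.2 to 55.5 in WT (0.63 ± 0.11, adjusted p = 2.4e-05, edgeR) and 52.0 to 67.2 in 1CF10. Gas5, the most abundant host, differed from WT by 0.04 ± 0.07, 0.05 ± 0.07 and -0.00 ± 0.07 in EV, 1CF10 and 2CD7. After IFN beta 2 of the 17 rose in WT (Snhg12 and Zfas1) and none passed in EV, with medians of 0.01 and -0.07. Of the 7 calls in EV, 4 were kept without EV replicate 2 or WT replicate 2 or 3 and 3 by DESeq2. Of the 7 in 1CF10, all were kept by DESeq2 and 5 without replicate 3 of both clones.

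**Figure D5:**
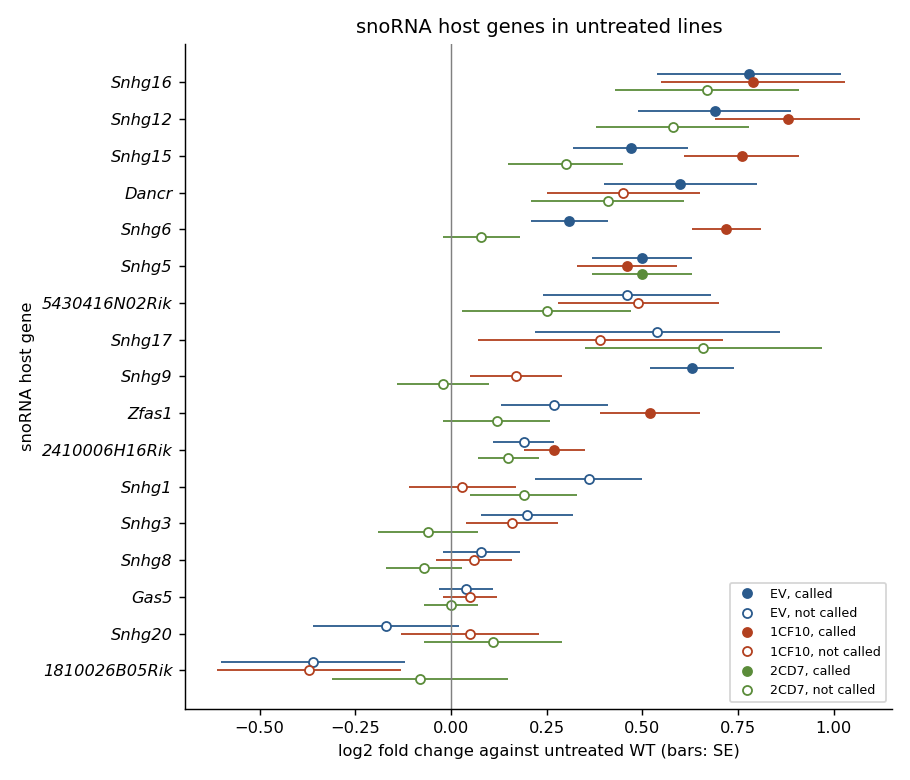
Log2 fold change against untreated WT (points, with SE bars) of the 17 members listed as snoRNA host genes in untreated EV, 1CF10 and 2CD7, filled where the adjusted p was under 0.05. Most points lie to the right of 0 (15 of 17 in EV), and Gas5, Snhg8 and Snhg20 lie near it.

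The remaining lists were small among the members. Of 21 RNAs listed as microRNA hosts 3 were members, and Mir22hg and Mir100hg, which carry microRNAs, passed in no comparison. Mirt1, named for myocardial infarction and not known as a microRNA host, was higher in untreated EV (0.77 ± 0.19) and 1CF10 (0.68 ± 0.19) than in WT. The first of these calls was lost without EV replicate 1 (adjusted p = 0.0505, edgeR) and the second without 1CF10 replicate 1 or WT replicate 2. Of 18 growth and p53 linked RNAs 3 were members (Gas5, Pvt1 and Lockd). Pvt1, the RNA beside Myc, was higher in 1CF10 than in WT (0.64 ± 0.20, adjusted p = 0.0157, edgeR), and the call was lost without 1CF10 replicate 2 or 3 or WT replicate 3. Of 33 names listed as interferon and immune linked, with Morrbid entered also under another name, 5 were members. Of these, 3 (AW112010, Gm20559 and Morrbid) rose in both controls while Neat1 and Ptgs2os passed in neither. This list was drawn up with earlier results of these data known and is not independent evidence of its direction.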

How the data were processed

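UMI counts per gene, deposited by the authors as 1 table of raw counts for all 24 libraries, were used as they stand. Per the labels' protocols, 20 ng of RNA was primed at the poly(A) tail, a sample index of 8 bp and a UMI of 10 bp were added, and read 2 (101 bp) read the cDNA in sense. The submitters' processing notes name cutadapt 3.0, R 3.6.2 and 4.1.2, edgeR 3.36.0, limma 3.50.0 and the build GRCm38; the aligner and the strand setting are not given in the sources used here. A 3' tag is counted once per molecule, so levels (CPM, UMIs scaled to 1000000 in each library) were not divided by length.

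Differences were tested in R 4.3.3 with edgeR 4.0.16 (quasi-likelihood F test, TMM scaling, filterByExpr with a minimum count of 10 and total of 15) on all 24 libraries in 8 groups. This left 11698 genes, which held 99.5% to 99.6% of the UMIs, and all 140 members; p-values were adjusted over all 11698. A gene counted as called at an adjusted p under 0.05. A self-test on simulated counts was run after the main fit and took its genes and levels from it. It gave every gene the same spread, so it does not measure how the test does with the spread of these data. No samples or columns were left out.

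The members and lists were chosen with earlier results of these data known. The RNAs named were drawn from several sets, not all of whose members are named. The sets were the 10 most abundant, those called in the IFN beta responses or their difference, and those nearest the UMI threshold. Also used were those called between untreated lines (up to 5 in each direction by size) and the members of fixed lists. Alternatives were DESeq2 1.42.0, DESeq2's size factors within edgeR, no filter on low counts, a fit of the compared groups alone, a replicate block, a minimum of 480 UMIs and leaving out each library. Positions and 3' ends come from GENCODE M21, promoters from RefSeq on GRCm38.p6, where 98 of the 140 members had a window. No 2 libraries of a group agreed within sampling noise (chi-square per gene 1.42 to 4.9). Of the promoter motifs searched, 1 is not reported here.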

Additional observations from a re-analysis of the deposited data

Results flagged for a closer look

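The response to IFN beta differed between the Ifnar1 knockout clones and the controls for 9 RNAs by a direct test of the difference (edgeR, adjusted p under 0.05). The log2 difference, clones minus controls, was -2.99 for AW112010, -1.76 for Gm20559, -1.31 for AU020206 and -1.06 for Morrbid, which all rose in both controls. It was -0.95 for Crnde, -0.53 for Gt(ROSA)26Sor, -0.50 for Gm19705, -0.46 for Zfas1 and 0.65 for Gm49708. The first 4 kept the call under every one of 29 alternatives, Crnde under 27, Zfas1 under 25, Gm19705 under 21, Gt(ROSA)26Sor under 16, and Gm49708, whose 3' end is shared with Gm50321, under 13. Groups of 3 libraries are too small to test for a single library that stands apart.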

How the results depend on the processing

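No called value of a named RNA turned its sign. Of 86 such values 47 kept their call in every alternative run, and 176 of 1149 alternative values no longer passed. Of 307 alternative counts 254 stayed within 1.5 times. For the rest, the cause was not tested. With DESeq2 the count of RNAs that fell in EV after IFN beta was 0, the responses of the clones were higher for 0 and lower for 4, EV had 5 lower than WT, 1CF10 had 5 higher and 2 lower than EV, 2CD7 had 6 lower than EV and 2 lower than WT, and 25 passed the joint test of lines. With a minimum of 480 UMIs 1CF10 had 2 and 2CD7 5 lower than EV. With no filter, and in a fit of the compared groups alone, 2 fell in WT. Without untreated replicate 3 of both clones the responses of the clones were higher for 2 and lower for 5, and 1CF10 had 5 higher than EV and 9 higher than WT.

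Leaving out 1 library at a time gave 5 to 7 raised and 0 to 3 lowered RNAs in WT, 4 to 5 and 0 to 1 in EV, and 0 in the clones. Responses of the clones were higher for 0 to 2 and lower for 6 to 9. EV had 10 to 15 higher and 5 to 8 lower than WT. 1CF10 had 5 to 8 higher and 2 to 6 lower than EV, and 11 to 14 higher and 7 to 11 lower than WT. 2CD7 had 4 to 5 higher and 6 to 9 lower than EV, and 0 to 2 higher and 1 to 5 lower than WT. The joint test gave 29 to 37.

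Replicate numbers did not pair the libraries: same-numbered libraries deviated together with a mean correlation of 0.00922 (-0.0777 to 0.0828). With the replicate block 7 RNAs rose in WT and 5 in EV, 5 were lower in 2CD7 than in WT, and 39 passed the joint test, and every other count was as without it. A median member had 532 UMIs over 24 libraries, so small differences in single members are seen with little precision.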
